A study of Rattus norvegicus with 6 samples.

Results

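The large subunit of the cytosolic ribosome is built from 3 ribosomal RNAs and many proteins, most of which carry the gene symbol Rpl or Rplp. Genes were taken by symbol alone, with no measured value used: every annotated gene row whose symbol is Rplp0 to Rplp2, or Rpl followed by a number and at most 1 letter. This gave 48 rows with 43 different symbols, of 24360 gene rows in all, and 272 transcripts, of 44501 in all. Of the 272 transcripts, 53 are annotated and 219 are models that the files type as new. After a filter on low counts 42 of the 48 rows were tested. The other 6 were the muscle paralog Rpl3l and extra rows of Rpl21, Rpl32 and Rpl7a, each at 32 counts or fewer in every sample. Rplp1, Rpl13a, Rpl9, Rpl35a, Rpl38 and Rpl10l were not analysed here.

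The samples are RNA of H9c2, a myoblast line from embryonic rat heart, with a wild-type genotype in both groups. In the first group are 3 control samples (Ctrl, treatment NC), and in the second are 3 samples given ginsenoside Rb2, a ginseng saponin. The protocol text, shared by both groups, describes 48 h of Rb2, then 4 to 6 h without glucose and oxygen, then 12 h with both restored. It leaves unsaid whether the controls were deprived too, and no label tells whether the replicates were cultured apart, so the spread behind each p-value may be technical. The labels call the cells embryonic cardiomyocytes. Of 10 cardiac muscle markers matched, 2 passed the filter. The summed level of the 10 was 50.1 to 70.4 CPM in Ctrl and 47.3 to 56.8 in Rb2, of which Tnnt2 gave 42.1 to 61.4 CPM and Nkx2-5 0.349 to 7.73 CPM, while Myh7 was at 0 in 5 of 6 samples. Of 9 skeletal muscle markers matched, the myoblast genes Myod1 and Myog were at 7.77 to 19.9 CPM in every sample. Des was at 9.10 to 13.9 CPM, Acta1 at 1.73 to 5.24, and Tnnt1, Tnnt3, Ckm, Myh3 and Chrna1 at 0 to 1.91. The 6 fibroblast markers summed to 2905 to 3825 CPM in Ctrl and 3452 to 3865 in Rb2. Most of that sum came from Col1a1, Col1a2 and Col3a1, while Pdgfra and Dcn were at 0 to 0.181 CPM. The markers past the filter were 2 of cardiac muscle, 4 of skeletal muscle, 4 of fibroblasts and 1 of epithelium. None of these was called different between the groups. No endothelial or leukocyte marker passed the filter, so none of those was tested.

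Ribosomal proteins are made in the cytoplasm, imported into the nucleus, and joined to ribosomal RNA in the nucleolus with the help of assembly factors. The messages are among the most abundant in growing cells. Most begin with a C followed by a run of pyrimidines, the 5' terminal oligopyrimidine or TOP motif, through which mTORC1 and its partner Larp1 control their translation and stability. In heart muscle cells, ribosome production is known to go up in hypertrophic growth, and cells short of glucose or oxygen lower mTORC1 activity and protein synthesis.

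The annotated start sites were searched for a looser pattern than this motif, an unbroken run of C and T that covers the first base. Such a run may have T at the first base, as in Rpl12, and may lie partly before the start. The counts below are therefore not counts of TOP motifs as defined above. RefSeq promoter windows of the rat build GRCr8 were matched for 33 of the 42 genes tested. The 6 below run from 15 bases before the first transcribed base to 15 bases from it onward, 5′ to 3′, and capitals mark the unbroken run of C and T that covers the first base. They were chosen to show the gene that was called (Rpl12), the stalk platform Rplp0 and the gene called in the test of transcript makeup (Rpl31). The others are a member of the paralog pair described below (Rpl22), and a contrast without a long run (Rpl41 and Rpl5).
Rpl12, chr3:36661925-36661954, plus strand: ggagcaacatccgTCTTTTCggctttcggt
Rplp0, chr12:46718376-46718405, minus strand: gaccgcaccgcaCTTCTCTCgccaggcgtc
Rpl31, chr9:49143096-49143125, plus strand: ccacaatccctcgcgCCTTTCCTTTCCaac
Rpl22, chr5:168117946-168117975, plus strand: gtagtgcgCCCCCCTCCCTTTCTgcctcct
Rpl41, chr7:1563483-1563512, minus strand: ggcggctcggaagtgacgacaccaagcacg
Rpl5, chr14:1995211-1995240, minus strand: actctctttcccacgTCgcttgcgtcctgg
A run of 6 or more C and T over the first base was present in 19 of the 33 windows (57.6%), against 2766 of 33469 rat promoter windows (8.26%). The motif CCGGAA, searched on both strands of the window from 250 bases before to 50 after the start, was in 17 of 33 (51.5%) against 14.95% of all. CTTTCC, searched the same way, was in 14 of 33 (42.4%) against 26.4%, and its reverse-strand matches can share bases with CCGGAA. AAGATGGC was in 1 of 33 (3.03%) against 3.17%. These are letter matches at RefSeq's annotated starts, not measured start sites of these cells. The 19 genes with a run had a median log2 fold change (Rb2 over Ctrl) of -0.22, and the 14 with a shorter run or none had -0.20.

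Counts of the large subunit genes made up 15.6%, 15.2% and 14.3% of all counts in the Ctrl samples, in order of replicate number, and 14.2%, 13.9% and 13.7% in the Rb2 samples. The 2 groups did not overlap, and Ctrl replicate 3 lay next to the Rb2 samples. The means were 15.03% ± 0.650 and 13.96% ± 0.249 (SD, n = 3 each), a difference of -1.07 percentage points, and -0.80 points without Ctrl replicate 1. Small subunit genes went the same way, from 9.90% ± 0.367 to 9.23% ± 0.0891, so that the ratio of large to small subunit counts was 1.52 ± 0.0321 in Ctrl and 1.51 ± 0.0345 in Rb2. These are shares of a library. In such bulk RNA, fewer cells that make much of these messages and less of them per cell cannot be told apart.

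**Figure D1:**
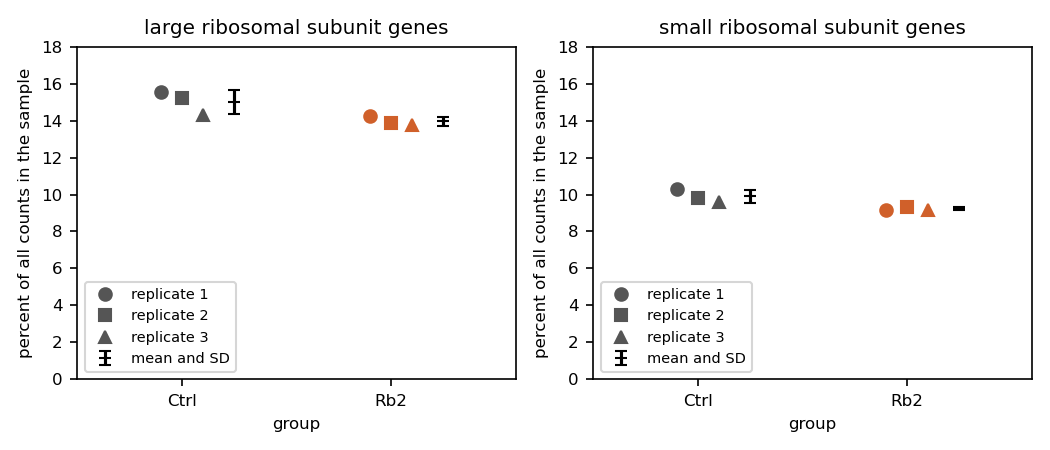
Share of all counts in each sample, in percent, held by large (left) and small (right) ribosomal subunit genes. Points are samples, marked by replicate, and bars show the mean and SD of 3. For the large subunit the Ctrl samples lie between 14.3% and 15.6% and the Rb2 samples between 13.7% and 14.2%.

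Gene by gene, most of the 42 genes tested had a slightly lower level in Rb2, and 1 passed the test. Rpl12 was called lower and none higher by edgeR at an adjusted p under 0.05, among 11551 genes of which 0.805% were called lower (2.7% in either direction). At an unadjusted p under 0.05, 24 of the 42 were lower and 1 higher, against 8.17% of all genes lower. A log2 fold change below 0 was found in 38 of 42, against 52% of all genes. The median was -0.23 (85.6% of the Ctrl level), with quartiles of -0.28 and -0.10, and the median over all genes was -0.016. Groups that did not overlap were seen in 22 genes on the lower side (12.2% of all genes) and in 1 on the higher side, Rpl23a (15% of all genes). The median SE was 0.084 among the members and 0.23 over all genes. A small difference thus reaches a low p, or separates the groups, more readily in the members. The shares over all genes were not matched for this. The members' median lay within the quartiles of all genes, -0.24 and 0.26.

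The count of calls depended on the libraries. It was 14 without Ctrl replicate 1 (13 lower and Rpl23a higher), 20 without Ctrl replicate 3 (all lower), and 0 without Ctrl replicate 2 or without any of the 3 Rb2 replicates. Over all genes the first 2 of these fits called 896 of 11901 and 644 of 12022. Where no member was called, few genes were called at all. Those were 15 of 11976 without Ctrl replicate 2, and 39, 3 and 11 without Rb2 replicate 1, 2 and 3. Within Ctrl the genes moved together: the median deviation of the 42 genes from their mean over the samples, in log2 units, was 0.17, 0.15 and -0.01 in the Ctrl samples and -0.05, -0.12 and -0.15 in Rb2. Ctrl replicate 1 was the highest of all 6 samples in 26 of the 42 genes (26.4% of all genes), and Ctrl replicate 3 was the lowest Ctrl sample in 33. Ctrl replicate 1 also had the most counts, 8793390, against 5193077 to 5881914 in the other 5 libraries. The part of this difference in depth in the result was not tested beyond leaving that library out, which gave a median log2 fold change of -0.17 in place of -0.23. Scaling by library size alone gave -0.11, with 30 of 42 below 0, and moved the median of all genes to 0.096, so that relative to all genes the members' median was -0.21 under either scaling.

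**Figure D2:**
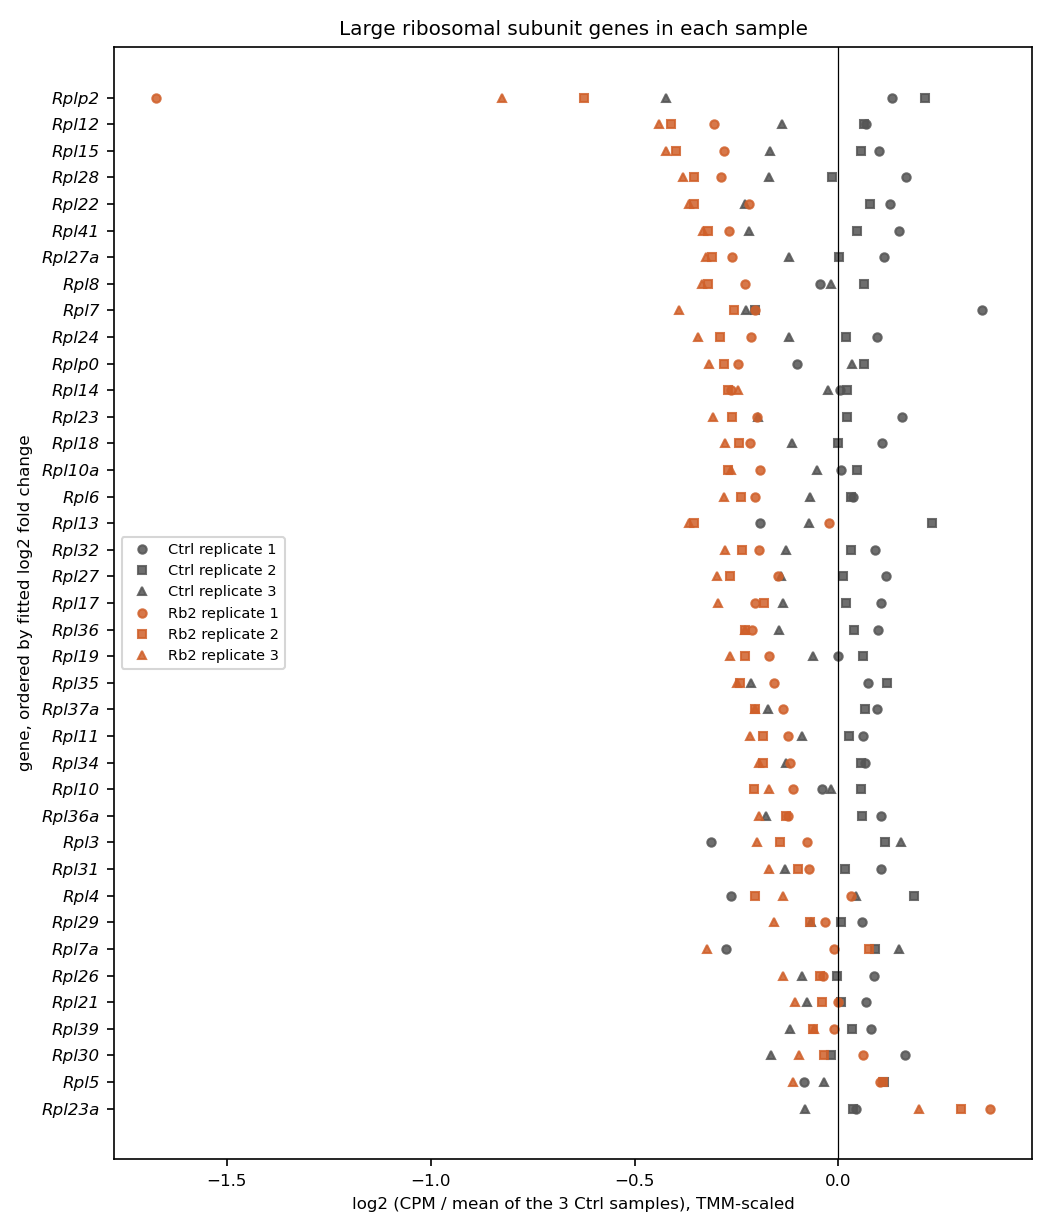
Level of 39 large subunit genes in each of the 6 samples, as log2 of CPM over the mean of the Ctrl samples, with genes ordered by fitted fold change (Rpl37 and Rpl39l, below 20 CPM, and 1 other are left out). Most Rb2 points lie left of the Ctrl points, Ctrl replicate 3 often lies between, and Rpl23a at the bottom is the gene with all Rb2 points to the right.

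The stalk that recruits translation factors held both the called gene and the most negative fold change. This group and the others below, sorted by place in the subunit, were made after the values were seen. Rpl12, the protein uL11 at the base of the stalk, was at 4427, 4406 and 3833 CPM in Ctrl and 3420, 3177 and 3112 CPM in Rb2. Every Rb2 sample was below every Ctrl sample, and the mean fell from 4222 ± 337 to 3236 ± 162 CPM (SD, n = 3 each). The log2 fold change was -0.38 (SE 0.08) with an edgeR adjusted p of 0.0464. The call was lost with upper-quartile scaling (edgeR adjusted p = 0.0547), with the replicate number as a block (0.0686), and without Ctrl replicate 2 (0.186) or Rb2 replicate 1 (0.118), 2 (0.238) or 3 (0.210). Rplp0, the platform that carries the P1 and P2 proteins of the stalk, was at 4361, 4880 and 4788 CPM in Ctrl and 3942, 3849 and 3752 CPM in Rb2. Its groups did not overlap and its log2 fold change was -0.28 (edgeR adjusted p = 0.0731), short of the threshold. Unlike Rpl12, Rplp0 was lowest of the Ctrl samples in replicate 1. Rplp2, which encodes P2, was at 84.6, 89.5 and 57.7 CPM in Ctrl and 24.2, 50.1 and 43.6 CPM in Rb2. It did not pass with edgeR (log2 fold change -0.98, SE 0.27, adjusted p = 0.0995), nor with limma (adjusted p = 0.105), while DESeq2 called it (adjusted p = 0.0066). At 134 CPM per kilobase its level was far under that of Rplp0 (3350) and Rpl12 (4911).

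The 5S particle, formed by Rpl5, Rpl11 and the 5S ribosomal RNA, is also known for binding Mdm2 and so stabilizing p53 when ribosome assembly fails. Rpl5 was at 827, 948 and 855 CPM in Ctrl and 941, 946 and 812 CPM in Rb2. These values overlapped throughout (log2 fold change 0.04, edgeR adjusted p = 0.857). Rpl11 was at 2256, 2203 and 2033 CPM in Ctrl and 1987, 1903 and 1863 CPM in Rb2, with no overlap but a gap between the groups smaller than the spread within them (log2 fold change -0.17, edgeR adjusted p = 0.236). Whether the 2 partners differed from each other in response was not tested.

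Of the 4 genes for proteins of the catalytic core and transfer RNA sites, all had a log2 fold change below 0, from -0.29 to -0.14, and none was called. Such a value was found in 38 of all 42 members and in 52% of all genes. Rpl8, the protein uL2 close to the catalytic centre, was at 3163, 3409 and 3224 CPM in Ctrl and 2786, 2614 and 2588 CPM in Rb2. Its groups were well apart (log2 fold change -0.29, SE 0.07, edgeR adjusted p = 0.0641). Rpl10, the last core protein to join the subunit and needed for its release to translation, was at 3651, 3901 and 3702 CPM in Ctrl and 3470, 3248 and 3331 CPM in Rb2 (log2 fold change -0.16). Rpl3, whose extension reaches toward the catalytic centre, was at 2143, 2878 and 2960 CPM in Ctrl and 2524, 2408 and 2315 CPM in Rb2, so that Ctrl replicate 1 was below all Rb2 samples. Without that replicate Rpl3 was called lower. Rpl10a, the protein of the L1 stalk where spent transfer RNA leaves, had a log2 fold change of -0.24 with no overlap (edgeR adjusted p = 0.0951).

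Proteins that line the exit tunnel for the new polypeptide, or surround its opening, ranged from -0.23 to 0.29 in log2 fold change. Of 8 such genes 7 were below 0, with 2 not overlapping on the lower side. The counts were 38 and 22 among all 42 members, and the shares 52% and 12.2% over all genes. Rpl23a, at the rim where the signal recognition particle docks, was at 1166, 1160 and 1069 CPM in Ctrl and 1465, 1394 and 1297 CPM in Rb2. It was the 1 member with all Rb2 samples above all Ctrl samples, with means of 1132 ± 54.6 and 1386 ± 84.1 CPM (SD, n = 3 each). Its log2 fold change was 0.29 (SE 0.08), with an edgeR adjusted p of 0.0840. Its adjusted p passed the threshold without Ctrl replicate 1 (edgeR 0.00667), with library size scaling (0.0228), with limma on log2 CPM (0.0209), with no filter (0.0482) and with a length offset (0.0267). These were 5 of 16 alternatives, and the library size and limma fits share their scaling to the column total. With upper-quartile factors the edgeR adjusted p was 0.183. Rpl39, a very short protein inside the tunnel, was at 5296, 5126 and 4615 CPM in Ctrl and 4978, 4801 and 4806 CPM in Rb2 (log2 fold change -0.04), a difference whose sign turned under library size scaling (0.071) and the length offset (0.058). Rpl19 (log2 fold change -0.22) and Rpl17 (-0.23) were the 2 without overlap.

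At the interface with the small subunit, all 4 genes were below 0 and 3 did not overlap on the lower side. Among all 42 members, 38 were below 0 and 22 did not overlap on that side. Over all genes the shares were 52% and 12.2%. Rpl41, which encodes the shortest protein of the ribosome, was at 23379, 21758 and 18101 CPM in Ctrl and 17514, 16887 and 16736 CPM in Rb2. The Ctrl samples differed from each other more than Ctrl replicate 3 differed from Rb2 (log2 fold change -0.31, SE 0.09, edgeR adjusted p = 0.109). By itself Rpl41 held 2.01% ± 0.203 of a Ctrl library and 1.76% ± 0.0184 of an Rb2 library (SD, n = 3). Rpl24 (-0.28) and Rpl23 (-0.26) were similar in size, while Rpl30 was at -0.023.

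Other members with large differences lie elsewhere on the subunit. Rpl15 was at 4539, 4403 and 3769 CPM in Ctrl and 3485, 3213 and 3158 CPM in Rb2 (log2 fold change -0.37, SE 0.09, edgeR adjusted p = 0.0618), values very close to those of Rpl12. Rpl28 was at 2080, 1836 and 1648 CPM in Ctrl and 1518, 1451 and 1424 CPM in Rb2 (-0.34, edgeR adjusted p = 0.0832). Both had groups that did not overlap, and neither passed. Rpl14 had the least spread of these, at 2356, 2384 and 2309 CPM in Ctrl and 1959, 1949 and 1981 CPM in Rb2 (-0.26, SE 0.07, edgeR adjusted p = 0.0729). Rpl32, often used as a reference gene in PCR, was at 6227, 5976 and 5347 CPM in Ctrl and 5111, 4964 and 4822 CPM in Rb2 (-0.24, edgeR adjusted p = 0.131). Rpl27a, second to Rpl41 in CPM, was at 13061, 12087 and 11100 CPM in Ctrl and 10090, 9747 and 9640 CPM in Rb2 (-0.30, edgeR adjusted p = 0.0704). Its Ctrl samples spanned more than its Rb2 samples, with Ctrl replicate 1 highest. The values of Rpl6, Rpl18 and Rpl36 likewise did not overlap between the groups, with log2 fold changes of -0.24, -0.25 and -0.22.

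A smaller number of members showed little or no difference. Rpl21 was at 5612, 5382 and 5081 CPM in Ctrl and 5353, 5207 and 4980 CPM in Rb2 (log2 fold change -0.05, SE 0.07). Rpl26, at the rim of the exit tunnel, was at 3824, 3589 and 3380 CPM in Ctrl and 3506, 3489 and 3274 CPM in Rb2 (-0.07). Rpl29, a short basic protein, was at 2146, 2073 and 1968 CPM in Ctrl and 2016, 1964 and 1848 CPM in Rb2 (-0.09). In these genes the groups overlapped and the difference was about as large as its standard error. Rpl4, whose loop reaches into the exit tunnel, was at 1514, 2069 and 1873 CPM in Ctrl and 1860, 1579 and 1656 CPM in Rb2, lowest of all in Ctrl replicate 1 (-0.10). Rpl7a was also low there, at 424, 546 and 569 CPM in Ctrl and 510, 541 and 410 CPM in Rb2 (-0.08). Rpl37 had the largest value above 0, at 1.34, but with 5.58, 6.69 and 0 CPM in Ctrl and 5.52, 19.2 and 6.81 CPM in Rb2 it rested on few counts and an SE of 0.97.

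**Figure D3:**
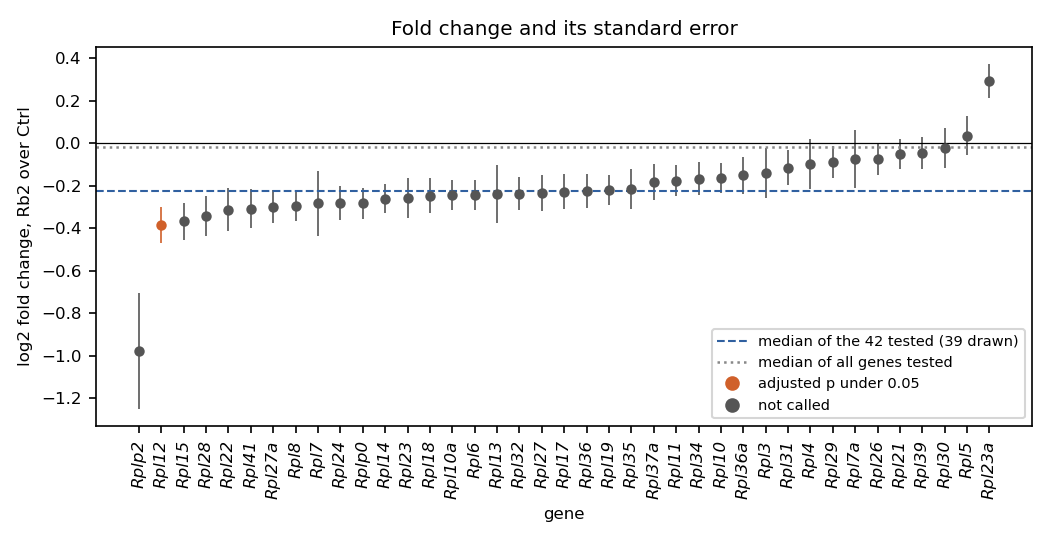
Log2 fold change of Rb2 over Ctrl with its standard error for 39 large subunit genes (Rpl37, Rpl39l and 1 other are not drawn). The dashed line is the median of the 42 tested, -0.23, and the dotted line the median of all genes, -0.016. Rpl12, in orange, is the gene called; Rplp2 lies lowest and Rpl23a highest.

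Some large subunit proteins have a paralog, and 4 such pairs had both genes past the filter. Rpl22 was at 2045, 1978 and 1599 CPM in Ctrl and 1610, 1467 and 1453 CPM in Rb2 (log2 fold change -0.31, edgeR adjusted p = 0.130). Its paralog Rpl22l1, whose symbol lies outside the rule, was at 586, 542 and 537 CPM in Ctrl and 694, 673 and 644 CPM in Rb2 (log2 fold change 0.27, SE 0.08, edgeR adjusted p = 0.0967). The pair thus had point estimates of opposite sign, neither of which passed. Rpl22l1 as a percent of Rpl22 was 28.6%, 27.4% and 33.6% in Ctrl and 43.1%, 45.9% and 44.3% in Rb2, from 29.9% ± 3.27 to 44.4% ± 1.39 (SD, n = 3 each). The groups were well apart, and the exact two-sided permutation p was 0.1, the smallest that 3 samples against 3 allow (0.2 adjusted over 4 pairs). Rpl22l1 passed on its own without Ctrl replicate 1 (edgeR adjusted p = 0.00436), with library size scaling (0.0255), with limma (0.0233) and with the length offset (0.0348). These were 4 of 16 alternatives, of which library size and limma share 1 scaling. With upper-quartile factors the edgeR adjusted p was 0.204.

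Rpl36al was 11.9% ± 0.347 of Rpl36a in Ctrl and 12.9% ± 0.243 in Rb2 (exact permutation p = 0.1, adjusted 0.2). Rpl7l1 was 16.2% ± 5.69 of Rpl7 in Ctrl and 18.02% ± 0.409 in Rb2 (exact permutation p = 1), with Ctrl replicate 1 apart at 9.71%. Rpl7 was highest there, at 859 CPM against 513 to 584 CPM in the other 5 samples. Rpl7l1 was also lowest there, at 83.5 CPM against 94.6 to 117 CPM in the others. The testis paralog Rpl39l was at 1.58, 1.08 and 2.27 CPM in Ctrl and 1.42, 1.73 and 2.58 CPM in Rb2, at most 0.0536% of Rpl39. Rpl3l, known from striated muscle, had at most 4 counts per sample.

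Levels per transcript length differed greatly between members although the proteins are present about once each per subunit. Dividing by length assumes that longer transcripts give more reads. The labels describe an Illumina mRNA kit, while the new models carry identifiers that begin with ONT. Whether the reads were long or short is unsettled, so the levels below depend on that assumption. In CPM per kilobase, averaged over the 6 samples, Rpl41 stood at 43309 ± 6611, Rpl39 at 13876 ± 747 and Rpl27 at 11918 ± 1400 (SD, n = 6). Rpl41 was apart from the next gene in every sample. Rpl39, Rpl27 and Rpl27a (11253 ± 1436) followed in that order in each of the 6 samples, the means of Rpl27 and Rpl27a lying within each other's SD. The median was 3487, and 35 of 42 were at 1000 or more. The lowest were Rpl39l at 3.59, Rpl37 at 20.1 and Rpl7 at 120, followed by Rplp2 at 134, Rpl13 at 184, Rpl7a at 580 and Rpl5 at 836. Before division by length Rpl7 was at 513 to 859 CPM, and its leading transcript, an annotated one, has 5151 bases. Mammalian genomes hold near-identical processed copies of most ribosomal protein genes, and how reads shared with copies bear on the low levels was not tested. The order of the genes was nearly the same in both groups (Spearman rho 0.992 over the 42 genes, which share all libraries).

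Message length and the size of the difference were weakly related. Across the 39 genes at 100 CPM or more in Ctrl, mean transcript length and log2 fold change had a Pearson r of -0.17 and a Spearman rho of -0.13, over genes that share all libraries. The 19 shorter genes (358 to 731 bases) and the 20 longer genes (751 to 5148 bases) both had a median of -0.23. The excess of Ctrl replicate 1 over the other 2 Ctrl samples and the log2 fold change, which share that library, had a rho of -0.38.

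The transcript table holds several models per gene, and 139 transcripts of the members were tested, 29 annotated and 110 new models. None was called by edgeR, where none of 16679 transcripts was (0%). At an unadjusted p under 0.05, 39 were lower and 2 higher (6.11% of all transcripts lower), and DESeq2 called 14 lower and 1 higher (2.09% of all called). In 33 of 42 genes a single transcript held 90% or more of the counts, and in 21 genes that leading transcript was a new model. The 3 most abundant transcripts of Rpl12 shared its direction: the 768-base model, with 80.1% of its counts, had a log2 fold change of -0.35, the 750-base model -0.52 and the 877-base model -0.62. The last went from 307 ± 12.2 to 200 ± 13.7 CPM, with the smallest adjusted p of any member's transcript (edgeR adjusted p = 0.0842).

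Transcript makeup was called different in 1 of 35 members with at least 2 transcripts tested, Rpl31 (edgeR diffSpliceDGE adjusted p = 2.57e-06), against 14 of 3361 genes (0.417%). At an unadjusted p under 0.05 Rpl12 was the other member, 2 in all (3.36% of all genes). Rpl31 encodes a protein at the rim of the exit tunnel. Its 467-base new model had 105, 215 and 224 counts in Ctrl and 0 in each Rb2 sample. The call rests on this model, which passed the low-count filter through its Ctrl counts alone and so had to differ. That is 13.0, 39.0 and 39.2 CPM against 0, or from 0.462% to 1.67% of the gene's transcript counts in Ctrl against 0. Pooled over each group, the model was at 26.6 CPM in Ctrl. With 3 counts over the Rb2 group as the limit that a count of 0 allows, Rb2 was at 0.184 CPM or less, 144-fold under that pooled value. This limit covers counting error in Rb2 only, and not the spread among the Ctrl samples or the way reads are assigned to models. It is a minor product: the share of the 1019-base model was 92.6% ± 0.550 in Ctrl and 93.6% ± 0.428 in Rb2, and that of the annotated transcript, of 1144 bases, was 5.67% and 5.87%. The gene itself, at 2757, 2594 and 2342 CPM in Ctrl and 2439, 2392 and 2280 CPM in Rb2, was not called (log2 fold change -0.11).

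**Figure D4:**
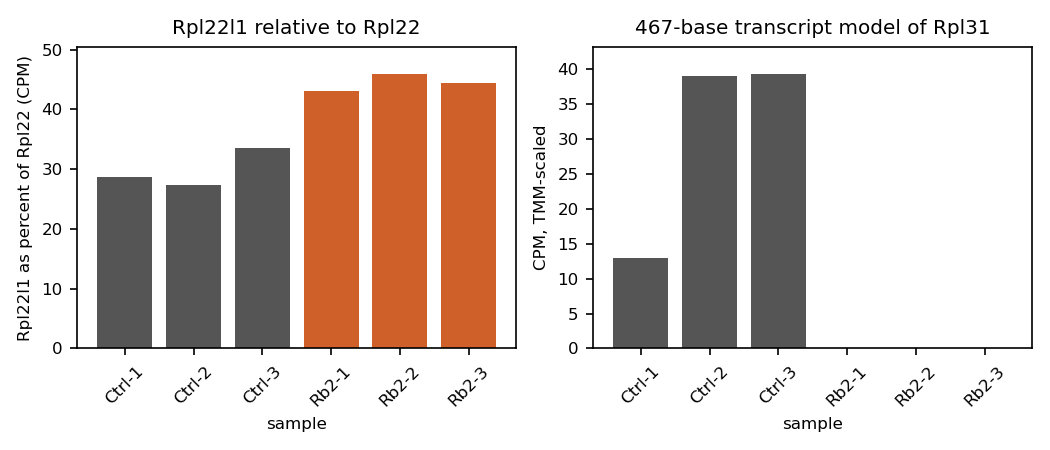
Left, Rpl22l1 as a percent of Rpl22 (ratio of CPM) in each sample, 27.4% to 33.6% in Ctrl and 43.1% to 45.9% in Rb2. Right, CPM of the 467-base transcript model of Rpl31, present in the 3 Ctrl samples at 13.0 to 39.2 CPM and at 0 in the 3 Rb2 samples. Each bar is 1 sample.

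Counts of 0 beside high values were seen in other minor models of the members as well. Of 93 member transcripts that reached 20 CPM in some sample, 6 were at 0 in another, and 4 of the 6 passed the filter. Besides the Rpl31 model, those that passed were a 609-base model of Rpl13, at 33.6, 53.9 and 25.2 CPM in Ctrl and 32.1, 0 and 0 CPM in Rb2, a 626-base model of Rpl29 and a 428-base model of Rpl39. The last pair were at 0 in Rb2 replicate 2 alone, at 20.9 CPM or more elsewhere. The others, which were not tested, were a 592-base model of Rpl11, at 40.1, 37.2 and 0 CPM in Ctrl and 0 in all Rb2 samples, and a 423-base model of Rpl39, at 7.54, 0 and 0 CPM in Ctrl and 0, 33.8 and 0 CPM in Rb2. Zeros thus stood in samples of both groups. These models were chosen after their values were seen. The way the files assign reads to models that differ little is not given in the sources used here, and its part in these zeros was not tested.

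Small subunit genes, the partners of the large subunit, had a median log2 fold change of -0.30 over 27 tested, with 25 below 0, 1 called lower and 1 called higher. Rps3 fell from 6516 ± 253 to 5263 ± 161 CPM (log2 fold change -0.31, edgeR adjusted p = 0.0493), and Rps3a rose from 1952 ± 186 to 2542 ± 38.1 CPM (log2 fold change 0.38, edgeR adjusted p = 0.0479). The large subunit of the mitochondrial ribosome, built from other genes, had a median of -0.09 over 47 tested, with 29 below 0, and 0.023 under library size scaling. Its 1 called gene, Mrpl42, rose from 45.5 ± 4.00 to 65.9 ± 3.34 CPM (log2 fold change 0.53, edgeR adjusted p = 0.0479, n = 3 each). None of the differences between these groups of genes was tested.

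Genes that build and regulate the subunit had list medians above 0. So did the 8426 annotated genes tested, at 0.037, with 4548 above 0 and 207 called higher. Of 49 large subunit assembly factors tested, 2 were called higher and none lower, with 36 above 0 and a median of 0.16 (all genes, 1.9% called higher and a median of -0.016). Npm1, a nucleolar chaperone that takes part in late assembly and export, rose from 354 ± 53.1 to 546 ± 22.6 CPM (log2 fold change 0.63, edgeR adjusted p = 0.0327, n = 3 each), with every Rb2 sample above every Ctrl sample. Gnl3l, a nucleolar GTPase, rose from 5.48 ± 0.859 to 11.5 ± 1.29 CPM (log2 fold change 1.08, edgeR adjusted p = 0.0376). No gene was called among 15 dedicated chaperones and importers of ribosomal proteins (median 0.14), 23 genes of RNA polymerases I and III and their ribosomal RNA factors (0.14), or 18 genes of mTORC1 and TOP control (0.08). Of 14 genes of ribosome stress and surveillance (median 0.04), Ltn1, the ubiquitin ligase that marks nascent chains on stalled large subunits, rose from 11.2 ± 0.674 to 19.0 ± 2.10 CPM (log2 fold change 0.77, edgeR adjusted p = 0.0474, n = 3 each). With the length offset the medians were 0.056 for the assembly factors, 0.0059 for the chaperones and importers and 0.069 for the polymerases. They were -0.062 for mTORC1 and TOP control and -0.10 for stress and surveillance, both with the sign turned. That of the large subunit genes was -0.23. In all 5 of these lists and in the small subunit and mitochondrial genes, no gene was called without Ctrl replicate 2, without any 1 Rb2 replicate, or with the replicate block. Those fits called only 3 to 39 of all genes. The small subunit, mitochondrial and stress lists had 0 calls also with upper-quartile factors and with the stricter filter, the mitochondrial list with RLE, and with the length offset the stress list had no higher call and 1 lower.

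**Figure D5:**
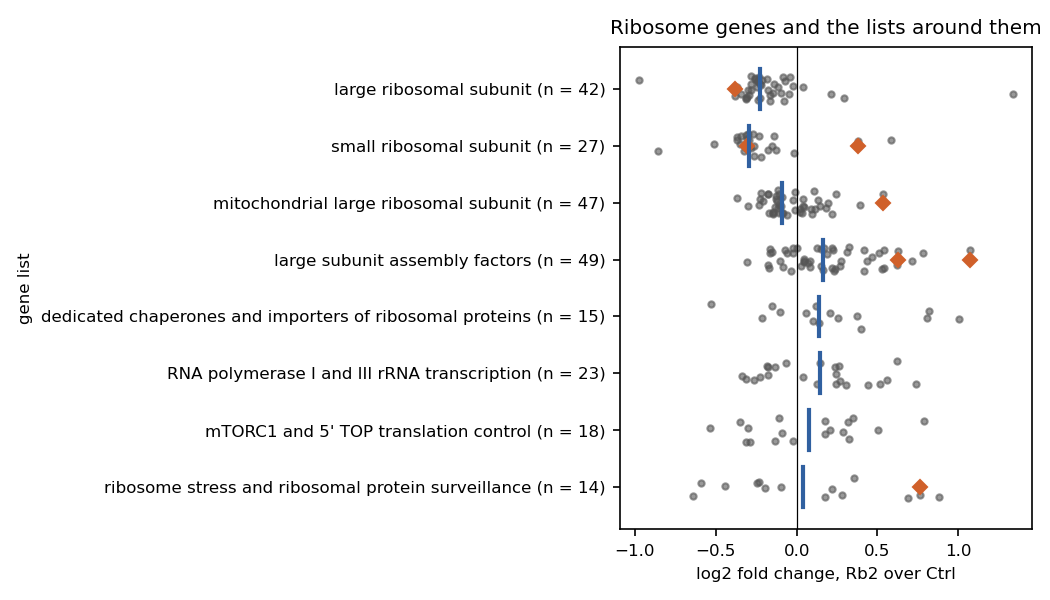
Log2 fold change of Rb2 over Ctrl for each tested gene of the large subunit, the small subunit, the mitochondrial large subunit and 5 lists of ribosome production and control. Grey points are genes, orange diamonds are genes called by edgeR, and blue bars are medians, from -0.30 (small subunit) and -0.23 (large subunit) to 0.16 (assembly factors).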

How the data were processed

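RNA-seq counts of 3 Ctrl and 3 Rb2 samples of H9c2 were analysed. Raw counts of each gene and each transcript, with lengths in bases, are in one pair of deposited tables. The other deposited pair gives them as CPM, scaled to the column total with no length term. The submitters' processing notes name HISAT2, DESeq2 and mm10, a mouse build, while the identifiers are of rat. The counter and the annotation were not given in the sources used here. Each table has 18 columns of samples outside this series' labels, which were not used. No row lacked a gene.

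The gene and transcript tests used edgeR 4.0.16 (R 4.3.3, TMM scaling, filterByExpr, robust quasi-likelihood fit with 1 term for the group), with Benjamini-Hochberg adjustment over all genes or transcripts and a call at an adjusted p under 0.05. Transcript usage was tested with diffSpliceDGE. CPM values printed are TMM-scaled, and levels per kilobase sum each transcript's CPM over its own length. Total counts ran from 5193077 to 8793390. Paralog ratios had exact two-sided permutation tests. The fits were tested on simulated data. The gene fit recovered 35% of 2-fold and 88% of 4-fold changes, with 13 unchanged genes called. The transcript fit recovered 11% and 48%, with 7 unchanged transcripts called. The usage test recovered 20% of 4-fold changes, with 8 unchanged genes called. A gene or transcript that was not called is therefore not shown to be unchanged.

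The members and lists were chosen with earlier results of these data known. The 5 pathway lists hold 134 genes, of which 125 matched by symbol, 3 by an older symbol and 6 not at all. Values per sample are given for called genes, the 4 lowest and 4 highest fold changes, the 3 highest and lowest levels per length, the P proteins, the paralog pairs, and Rpl5, Rpl11, Rpl32 and the few others named for their place in the subunit, which were chosen after their values were seen. The role groups were also made then. The values of 1 member tested and 1 related gene are not reported here. Alternatives were RLE, upper-quartile, library size and TMM without ribosomal protein genes as scaling, no filter and a stricter one (1 CPM in 3 samples and 10 counts in all), DESeq2 1.42.0, limma 3.58.1 on log2 of the deposited CPM plus 1, a replicate block, a loess length offset (span 0.5), and each sample left out.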

Additional observations from a re-analysis of the deposited data

How the results depend on the processing

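Over all genes 312 were called (219 higher, 93 lower, 70.2% higher), 543 with library size only (463 and 80, 85.3% higher), 536 with no filter (386 and 150), 601 with limma (514 and 87, 85.5% higher), and 3 to 896 with a sample left out. Upper-quartile factors gave 135 higher and 92 lower (59.5% higher). Of the large subunit genes 1 was called, against 0 with upper-quartile factors, 2 with library size only, with DESeq2 and with limma, 4 with no filter and with the length offset, and 0 to 20 with a sample left out. Their median log2 fold change of -0.23 was -0.11 with library size only and -0.11 with limma (-0.110 and -0.109), and -0.26 to -0.17 with a sample left out. Relative to the median of all genes it was between -0.26 and -0.18 in all 16 alternatives. DESeq2 called 15 of their transcripts where edgeR called 0 (0 to 1 with a sample left out), and usage was called in 1 to 3 genes with a sample left out, without Ctrl replicate 3 also in Rpl11 and Rpl30 and without Rb2 replicate 1 also in Rpl13. The sign turned for genes near 0: Rpl5 (-0.010 with upper-quartile factors), Rpl36al (0.084 with library size only, 0.087 with limma, 0.096 with the length offset, -0.089 to 0.058 with a sample left out, above 0 without Ctrl replicate 1 or Rb2 replicate 3), Rpl39 (0.071, 0.072 and 0.058, and -0.087 to 0.015, above 0 without Ctrl replicate 1), Rpl7l1 (0.065 with library size only, 0.079 with limma, -0.16 to 0.073, above 0 without Ctrl replicate 2 or 3) and Rpl39l (-0.054 without Rb2 replicate 3 to 0.38 without Rb2 replicate 1). Library size scaling moved the median of all genes from -0.016 to 0.096. Limma, run on CPM scaled to the column total and so with the same scaling, moved it to 0.095. The cause of the turned signs was not tested. The replicate block gave 33 called genes (12 higher, 21 lower, 36.4% higher) and 0 large subunit genes; same-numbered samples deviated with correlations of -0.067, -0.061 and -0.0067, no sample correlated best with its own number, and the numbers were not taken to pair the samples. The difference in the share of counts stayed between -1.43 and -0.80 points in all 7 alternatives run for it. Rpl37, Rpl39l and the 6 untested rows rest on few counts, where a difference of the size seen in the other genes is not detectable.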
